A study of Mus musculus with 2 samples.

Results

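The barcodes described here are the cell barcodes with at least 200 detected genes in which transcripts of the mitochondrial genome made up 10% or more of all unique molecular identifiers (UMIs, the count of separate RNA molecules captured). They are called high-mitochondrial barcodes below. There were 500 of them among 4975 deposited barcodes, 376 of 2396 in the TAK-981 library and 124 of 2579 in the vehicle library. The remaining 4461 barcodes with at least 200 genes had a mitochondrial share under 10% and served for comparison. The share itself chose the barcodes, so everything computed from it is a description.

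The tumours came from A20 cells, a Balb/c line derived from a B cell lymphoma, inoculated under the skin of the left flank of Balb/c mice at 1000000 cells per animal. At a tumour volume of about 300 mm3 the mice were injected intravenously with TAK-981 at 7.5 mg/kg or with its vehicle, 20% HPbCD, a cyclodextrin solution. TAK-981 inhibits the SUMO-activating enzyme, the first step in attaching the ubiquitin-like SUMO proteins to their targets. Tumours were removed at 8 h, pressed through a 70 µm filter, passed over a dead cell removal reagent and captured with 10x Genomics Chromium 5′ chemistry. Host age, sex and the number of mice behind each library are not given in the labels, and an A20 tumour also holds host immune and stromal cells. There was 1 library per arm. No test between arms was possible, barcodes of a library are not replicates, and every interval below covers counting error only.

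Mitochondrial DNA encodes a small set of subunits of the respiratory chain and of ATP synthase, and its transcripts are made and translated inside the mitochondrion. Nuclear messenger RNAs are exported to the cytosol, where free ribosomes translate most of them and ribosomes on the endoplasmic reticulum (ER) translate those for membrane and secreted proteins. A high mitochondrial share is commonly used to filter single-cell data, because it is found in cells that have lost cytosolic RNA. It is also found in intact cells rich in mitochondria. The files hold no measure of membrane integrity, and the part of either in these barcodes was not tested.

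The libraries differed in depth before any filter. The TAK-981 library held 37470319 UMIs with a median of 11840.5 per barcode, and the vehicle library 57471750 UMIs with a median of 19608. The lowest total of any deposited barcode was 4670 UMIs in the TAK-981 library and 5965 with vehicle. The libraries shared 11 barcode sequences, none of them in a high-mitochondrial barcode.

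High-mitochondrial barcodes made up 15.7% of the TAK-981 barcodes with at least 200 genes (376 of 2388, exact binomial 95% interval 14.3 to 17.3%) and 4.82% of the vehicle barcodes (124 of 2573, 4.02 to 5.72%). Among them the mitochondrial share ran from 10.0 to 46.1% with a median of 14.7% in the TAK-981 library. In the vehicle library it ran from 10.0 to 26.1% with a median of 12.5%. The median of the barcodes under 10% was 2.54% and 2.04%. No gap separated the groups. In the TAK-981 library 113 barcodes lay at 8 to 10% and 94 at 10 to 12%, and in the vehicle library 67 and 51. The closest values on either side of the threshold were 9.97 and 10.0% in the TAK-981 library and 9.98 and 10.0% with vehicle. The 52 TAK-981 barcodes at 9 to 10% had a median of 6251 UMIs, and the 45 at 10 to 11% a median of 6275. In the vehicle library the 28 barcodes just under the threshold had a median of 7527.5 UMIs and the 24 just above it 7066.5.

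High-mitochondrial barcodes lay at the low end of the UMI totals in both libraries. Their median total was 5801 UMIs against 14643.5 under 10% in the TAK-981 library and 7486.5 against 20644 in the vehicle library. Part of this contrast is fixed by the rule, which divides by the total, so the numerator and the remainder were also counted apart. Non-mitochondrial UMIs had a median of 4881.5 against 14175.5 with TAK-981 and of 6391.5 against 20139 with vehicle, 2.90-fold and 3.15-fold lower. Mitochondrial UMIs had a median of 902 against 467 and of 1006.5 against 515, 1.93-fold and 1.95-fold higher. Every one of the 376 and 124 barcodes held more mitochondrial UMIs than the median barcode under 10% of its library. The rule fixes this, since 10% of the lowest deposited totals, 4670 and 5965 UMIs, already reaches these medians. The mitochondrial counts are therefore not free of the rule either. They held fewer genes, with medians of 2251 against 3166.5 and of 2620.5 against 3769. At an equal 1000 non-mitochondrial UMIs per barcode, the expected number of genes was higher in them, at a median of 690 against 553 with TAK-981 and 688 against 549 with vehicle.

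**Figure D1:**
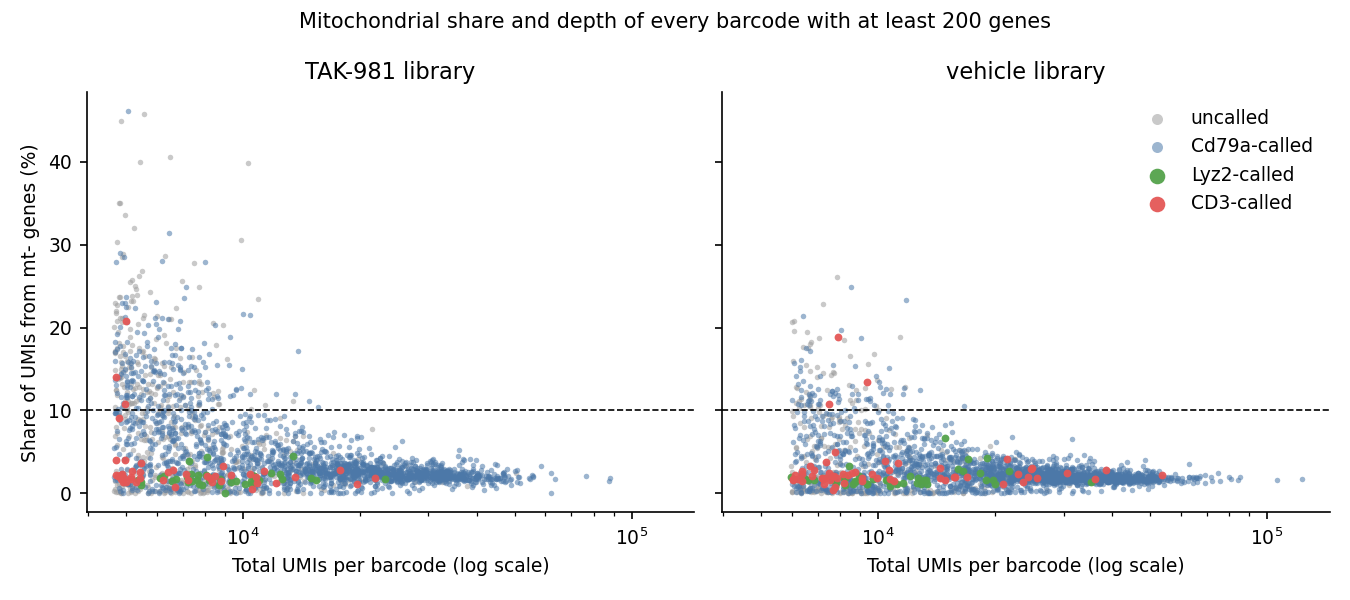
Share of UMIs from mitochondrial genes (vertical, %) against total UMIs (horizontal, log scale) for every barcode with at least 200 genes in the TAK-981 library (left) and the vehicle library (right). Colours give the lineage call and the dashed line is the 10% threshold. The barcodes above the line lie at the left edge of the totals, with medians of 5801 and 7486.5 UMIs, and merge with those below it.

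The difference between the libraries depended on the total at which they were compared. Of barcodes with 6000 to 8000 UMIs, 31.3% were high-mitochondrial with TAK-981 (123 of 393, 26.7 to 36.1%) and 20.8% in the vehicle library (76 of 366, 16.7 to 25.3%). At 8000 to 10000 UMIs the shares were 13.8% (30 of 218) and 13% (31 of 239), and at 10000 to 15000 UMIs 3.49% (13 of 373) and 3.75% (15 of 400). Above 20000 UMIs there were none in either library, among 380 TAK-981 barcodes with 20000 to 30000 UMIs and 297 with more, and 560 and 702 vehicle barcodes. The low totals were populated in only 1 library: 420 TAK-981 barcodes had fewer than 6000 UMIs, of which 209 (49.8%) were high-mitochondrial, against 5 vehicle barcodes, of which 1 was. With barcodes of at least 5965 UMIs only, the lowest total of the vehicle library, the overall shares were 8.65% with TAK-981 and 4.82% with vehicle. With at least 8000 UMIs they were 2.79% and 2.13%. The treatment, the depth and the lowest deposited total differ together between these libraries and cannot be told apart.

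**Figure D2:**
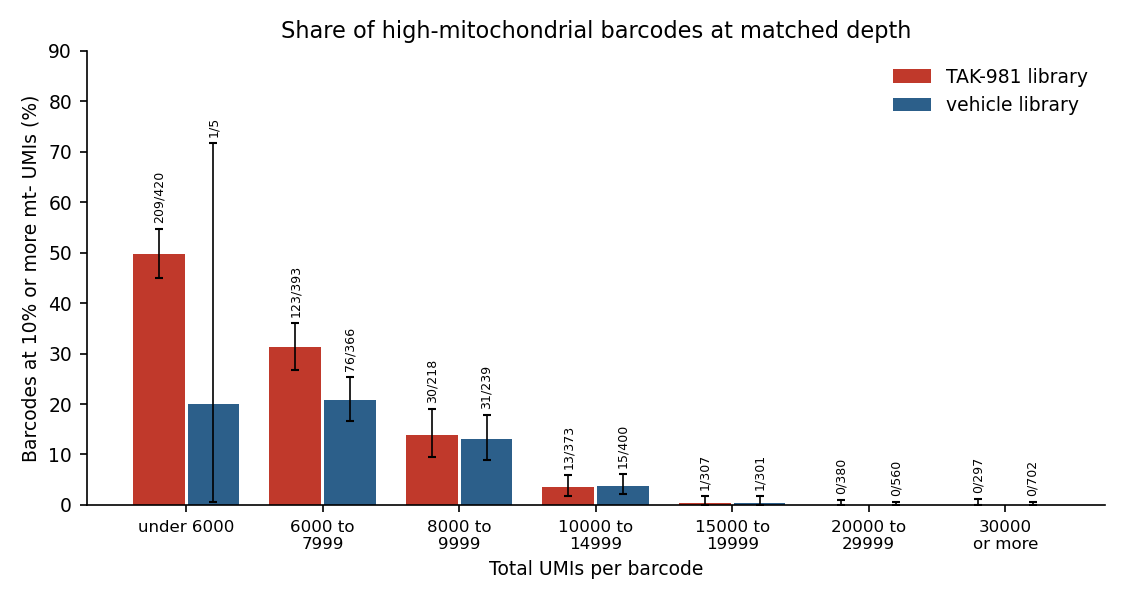
Percent of barcodes that were high-mitochondrial (vertical) by total UMIs (horizontal classes) in the TAK-981 library (red) and the vehicle library (blue). Error bars are exact binomial 95% intervals and the text above each bar gives the counts. The bars are of like height from 8000 UMIs upwards (13.8 and 13%, 3.49 and 3.75%), and the class under 6000 UMIs holds 420 barcodes of the TAK-981 library and 5 with vehicle.

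Lineage was called from Cd79a, a signalling chain of the B cell receptor found in A20 cells and host B cells alike, from the summed CD3 chains Cd3d, Cd3e and Cd3g of T cells, and from Lyz2, the lysozyme of monocytes, macrophages and neutrophils. The highest of these with at least 2 UMIs named the barcode. In the TAK-981 library 197 high-mitochondrial barcodes were Cd79a-called (52.4%, 47.2 to 57.5%), 3 were CD3-called (0.798%), none was Lyz2-called and 176 (46.8%) stayed uncalled. In the vehicle library 68 were Cd79a-called (54.8%, 45.7 to 63.8%), 3 were CD3-called (2.42%), none was Lyz2-called and 53 (42.7%) stayed uncalled. Barcodes under 10% were Cd79a-called in 80.6 and 83.9%, CD3-called in 2.04 and 2.25%, Lyz2-called in 1.99 and 1.80% and uncalled in 15.4 and 12%. Read the other way, 10.8% of the Cd79a-called barcodes were high-mitochondrial with TAK-981 (197 of 1818) and 3.20% with vehicle (68 of 2123), against 36.2% (176 of 486) and 15.2% (53 of 348) of the uncalled.

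The lower share of Cd79a calls moved with depth. At least 1 Cd79a UMI was found in 73.4% of the high-mitochondrial barcodes of both libraries, against 88.8 and 91.4% under 10%. After thinning every barcode to 1000 non-mitochondrial UMIs, Cd79a was seen in 32.2% against 36.0% with TAK-981 and in 31.5% against 33.2% with vehicle. Summed over all barcodes, Cd79a stood at 5.43 against 5.10 UMIs per 10000 non-mitochondrial UMIs with TAK-981 and at 4.09 against 4.52 with vehicle. The thinned shares and the levels lay closer together than the unthinned shares did.

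The uncalled barcodes carried B cell transcripts that the call had not used or had found at under 2 UMIs. Of the 176 uncalled high-mitochondrial barcodes with TAK-981, 173 held a UMI of at least 1 of 7 B cell markers (among them Cd79a, Cd79b, Ms4a1, Pax5, Blnk and Cd22), and all 53 with vehicle did. Uncalled barcodes under 10% with TAK-981 held one in 285 of 310 (91.9%), so this was common to uncalled barcodes of that library. As background for free RNA, 27.5% and 27.3% of the Lyz2-called and 24.4% and 23.6% of the CD3-called barcodes under 10% held such a UMI. The median totals behind these shares were 5522.5 and 7024 UMIs in the uncalled high-mitochondrial barcodes and 7573 in the uncalled TAK-981 barcodes under 10%. They were 8246.5 and 10636.5 in the Lyz2-called and 6623 and 8707 in the CD3-called barcodes. Ms4a1, which encodes CD20, was found in 98 of the 176 and 34 of the 53. Over all high-mitochondrial barcodes the 7 markers summed to 19.7 UMIs per 10000 against 14.2 under 10% with TAK-981 and to 17.6 against 13.7 with vehicle, and 372 of 376 and 123 of 124 held at least 1.

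Lyz2 was absent from every high-mitochondrial barcode. It had a UMI in 0 of 376 TAK-981 barcodes, which allows a share of up to 0.798%, against 52 of 2012 under 10% (2.58%). It had a UMI in 0 of 124 vehicle barcodes, which allows up to 2.42%, against 62 of 2449 (2.53%). All 10 markers of monocytes and macrophages were at 0 in both libraries, among them Csf1r and the complement genes C1qa, C1qb and C1qc. Under 10% these markers had 11135 UMIs in 64 barcodes with TAK-981 and 16668 in 92 with vehicle. With 40 and 44 Lyz2-called barcodes in all, the share of that lineage that was high-mitochondrial could be as large as 7.50% and 6.82%, which is above the 3.20% of Cd79a-called barcodes in the vehicle library and below the 10.8% in the TAK-981 library. Markers of endothelial cells were also at 0 in both libraries, against 48 and 57 UMIs under 10%. High-mitochondrial barcodes held 6.30 and 1.71% of all UMIs, so an equal level would give few such UMIs. With TAK-981, 28 of the 48 lay in Cd79a-called barcodes, so these counts say little of an endothelial lineage.

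The 6 CD3-called barcodes held between 3 and 33 CD3 UMIs. In the TAK-981 library they had 3, 9 and 5 CD3 UMIs at mitochondrial shares of 10.8, 14.1 and 20.8%. In the vehicle library they had 6, 33 and 10 CD3 UMIs at shares of 10.7, 18.9 and 13.4%. They were 3 of 44 (6.82%) and 3 of 58 (5.17%) of all CD3-called barcodes. Only 1 high-mitochondrial barcode, in the vehicle library, held at least 2 UMIs of more than 1 lineage, against 7 and 17 under 10%. No caller of doublets was run.

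The mix of mitochondrial transcripts was not used by the rule, which took their sum. Transcripts of mt-Co1, the catalytic subunit of cytochrome c oxidase (complex IV), made up a smaller part of mitochondrial UMIs in high-mitochondrial barcodes, 14.8% against 16.7% with TAK-981 and 15% against 17.4% with vehicle. The complex IV subunits together (mt-Co1, mt-Co2 and mt-Co3) held 38.9% against 41.3% and 38.6% against 41.2%. The ATP synthase subunits mt-Atp6 and mt-Atp8 held 26.6% against 24.7% and 27.2% against 25.8%, and the complex I subunits 24.3% against 23.4% and 23.9% against 22.7%. Cytochrome b of complex III differed least, at 10.2% against 10.7% and 10.3% against 10.4%. The largest ratios of shares were those of complex I subunits with few UMIs, mt-Nd6 with TAK-981 (1.31, 1.22 to 1.40, against 1.14 with vehicle) and mt-Nd3 with vehicle (1.35, 1.25 to 1.44, against 1.26 with TAK-981). The largest complex I subunit message, mt-Nd5, had ratios of 0.875 and 0.929. mt-Atp6 and mt-Atp8 lie on 1 bicistronic transcript with overlapping reading frames, so their UMIs cannot be fully assigned to either. All 13 genes were higher per 10000 total UMIs, from 5.12-fold to 8.26-fold, which the rule fixes.

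The nuclear genes were compared within Cd79a-called barcodes, 197 against 1621 with TAK-981 and 68 against 2055 with vehicle. Values are summed UMIs per 10000 non-mitochondrial UMIs, and a ratio is the high-mitochondrial level over the level under 10%. Genes entered when their expected UMIs at equal composition were at least 10 in the smaller group, which 7228 genes did with TAK-981 and 4776 with vehicle. With TAK-981 2381 genes were at least 2-fold higher (32.9% of those measured) and 267 at least 2-fold lower (3.69%). With vehicle 1119 were at least 2-fold higher (23.4%) and 264 at least 2-fold lower (5.53%). In both libraries 922 genes were higher (19.3% of 4776) and 115 lower (2.41%). The median gene stood at a log2 ratio of 0.52 with TAK-981 and 0.21 with vehicle. Scaled by the median of ratios, which sets that median to 0, 1165 genes were higher and 1072 lower with TAK-981, and 867 higher and 461 lower with vehicle. Groups of genes are therefore read below against these medians. The lists were chosen with earlier results of these data known, and each is described by counts and a median with no test.

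Among the lowest groups were the cytosolic ribosomal proteins, the protein part of the ribosome. Their median log2 ratio was -0.82 with TAK-981 and -0.74 with vehicle. Of 82 measured, 29 and 20 were at least 2-fold lower and none at least 2-fold higher, and 0 and 2 were above a ratio of 1. The lower genes were 35.4 and 24.4% of those measured, against 3.69 and 5.53% of all genes. Of all genes 32.9 and 23.4% were at least 2-fold higher. Rplp0, a protein of the ribosomal stalk, stood at 21.9 against 75.1 UMIs per 10000 with TAK-981, 3.43-fold lower (3.30 to 3.58). With vehicle it stood at 25.6 against 83.2, 3.25-fold lower (3.07 to 3.44). Rpl15 was 3.14-fold and 3.13-fold lower and Rps4x 2.96-fold and 3.01-fold lower. Rpl41, among the members with the most UMIs, was nearer to the rest of the genes at ratios of 0.624 and 0.697. Ribosomal protein genes have many near-identical pseudogene copies, and how the counting shared reads among them is not given.

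As a share of all non-mitochondrial UMIs, over all lineages, ribosomal proteins made up 19.4% in high-mitochondrial barcodes against 35.5% under 10% with TAK-981 and 21.4% against 35.7% with vehicle. Single barcodes of the high-mitochondrial group spread widely, from 4.44 to 45.4% and from 3.39 to 40.7%. The share was already lower well below the threshold. It was 36.4 and 36.3% in barcodes with under 2% mitochondrial UMIs and 16 and 18.8% in those with 20 to 30%. The 13 TAK-981 barcodes at 30 to 50% had 21.3%. Across the 376 and 124 high-mitochondrial barcodes the Spearman correlation between this share and the mitochondrial share was -0.26 and -0.14, as a description over barcodes that share a library.

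Other abundant cytosolic messages were lower too. The 29 housekeeping genes, a list of translation factors, actin and tubulin genes and cytosolic chaperones, had a median log2 ratio of -0.66 in both libraries, with 7 and 8 at least 2-fold lower. These are 24.1 and 27.6%, against 3.69 and 5.53% of all genes. Eef1a1, the elongation factor that brings aminoacyl-tRNA to the ribosome, stood at 59 against 118 UMIs per 10000 with TAK-981 and at 62.6 against 131 with vehicle, 0.499 and 0.476 of the level under 10%, and Pfn1, the actin-binding profilin, named after its value had been seen, at 0.404 and 0.408. Actb, encoding beta-actin, departed from this at 1.07 and 1.06. Subunits of initiation factor 3, which recruits the small ribosomal subunit to messenger RNA, had medians of -0.85 and -1.14 over 12 genes, 4 and 8 of them at least 2-fold lower. Eif3f stood at 3.74 against 12.2 UMIs per 10000 with TAK-981 and at 4.71 against 13.4 with vehicle. The largest subunit, Eif3a, went the other way at 1.43 and 1.35. The 37 proteasome subunits had medians of -0.52 and -0.50 and the 7 chaperonin subunits of -0.53 and -0.59. Against barcodes under 10% of matched depth, the proteasome medians were -0.28 and -0.27, with 0 and 1 genes at least 2-fold lower in place of 7 and 2. Without depth matching, the counts for initiation factor 3 and the proteasome stand against 3.69 and 5.53% of all genes at least 2-fold lower. The families of initiation factor, proteasome and chaperonin genes were defined, and Eif3a picked out, after values had been seen.

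**Figure D3:**
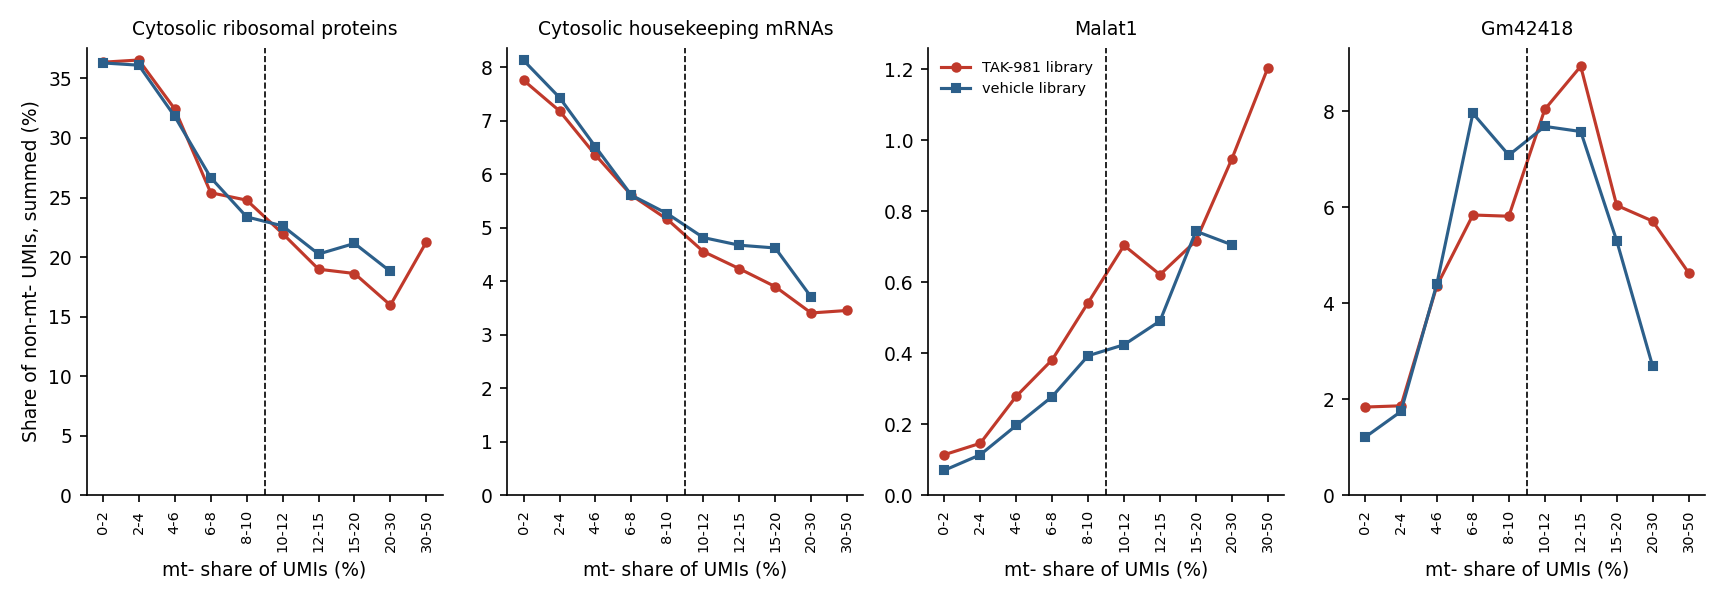
Share of non-mitochondrial UMIs (vertical, %, summed over barcodes) held by cytosolic ribosomal proteins, cytosolic housekeeping messages, Malat1 and Gm42418, by mitochondrial share of the barcode (horizontal classes, %), in the TAK-981 library (red circles) and the vehicle library (blue squares). The dashed line is the 10% threshold. Ribosomal proteins go from 36.4 and 36.3% in the lowest class to 16 and 18.8% at 20 to 30%, and Malat1 from 0.114 and 0.0705% to 0.947 and 0.705%.

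RNAs that stay in the nucleus were on the other side. Malat1, a long noncoding RNA of nuclear speckles, stood at 64.4 against 15.2 UMIs per 10000 with TAK-981 (4.23-fold, 4.13 to 4.34) and at 44.2 against 9.62 with vehicle (4.59-fold, 4.40 to 4.80). Neat1, the RNA scaffold of paraspeckles, was at 3.21-fold with TAK-981 from 65 against 568 UMIs. With vehicle it had 27 against 933 UMIs, under the filter, and a ratio of 3.04. Kcnq1ot1, a nuclear RNA antisense to Kcnq1, stood at 12.2 against 1.43 with TAK-981 (8.58-fold, 8.06 to 9.12) and at 10.1 against 1.00 with vehicle (10.1-fold, 9.17 to 11.1). All 5 nuclear-retained RNAs of the list that were measured with TAK-981 were at least 2-fold higher, with a median log2 ratio of 2.08, and so were the 2 measured with vehicle. Of all genes 32.9 and 23.4% were at least 2-fold higher. Across all lineages Malat1 took 0.732% of non-mitochondrial UMIs against 0.163% with TAK-981 and 0.521% against 0.100% with vehicle.

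Nespas, antisense to Gnas, was 5.93-fold and 5.49-fold higher, and Gm26917 had the highest smaller ratio of all genes, 8.76-fold and 8.78-fold. Whether counting used strand is not given, so reads of an antisense RNA and of its partner cannot be told apart for Kcnq1ot1 and Nespas. Gm26917 belongs with Gm42418 and AY036118 to gene models that overlap ribosomal RNA sequence. RefSeq (GRCm38.p6) lists Gm42418 as a synonym of Rn18s-rs5, an 18S ribosomal RNA related pseudogene. Gm42418 alone was 7.36% of non-mitochondrial UMIs against 2.30% with TAK-981 and 6.94% against 1.74% with vehicle, ranging from 0.284 to 63.8% and from 0.253 to 64.4% over single barcodes. Its share did not climb steadily with the mitochondrial share, with the highest class at 12 to 15% in the TAK-981 library (8.93%) and at 6 to 8% in the vehicle library (7.95%). Gm42418 and AY036118 were singled out after their values had been seen.

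Genes that fold and sort proteins in the ER were higher. The list of ER chaperones and unfolded protein response genes had median log2 ratios of 1.40 with TAK-981 (24 measured, 15 at least 2-fold higher, 1 lower) and 1.30 with vehicle (23 measured, 15 higher, none lower). The higher genes were 62.5 and 65.2% of those measured, against 32.9 and 23.4% of all genes. The lower were 4.17 and 0%, against 3.69 and 5.53% of all genes. Hsp90b1, the ER form of HSP90, stood at 26.3 against 5.87 UMIs per 10000 with TAK-981 (4.48-fold, 4.30 to 4.66) and at 12.6 against 3.32 with vehicle (3.80-fold, 3.50 to 4.12). Hspa5, the ER chaperone BiP, stood at 21.8 against 5.83 (3.74-fold, 3.58 to 3.90) and at 14.2 against 4.79 (2.96-fold, 2.74 to 3.19). Pdia3, a disulphide isomerase, had ratios of 3.58 and 3.17, and Calr, the calcium-binding chaperone calreticulin, 2.96 and 2.44. Uggt1, which checks the folding of glycoproteins in the ER, was 6.03-fold and 5.56-fold higher. Not all ER genes followed. Sec61b, a small subunit of the translocation channel singled out after its value had been seen, stood at 0.470 and 0.523.

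Membrane transporters and enzymes made on the ER were among the 15 highest genes, after Gm26917 and Kcnq1ot1. Atp13a3, a transport ATPase, had 241 UMIs in the 197 barcodes with TAK-981 and 92 in the 68 with vehicle, ratios of 7.81 (6.74 to 9.02) and 8.14 (6.51 to 10.1). Slc16a1, the lactate and pyruvate carrier MCT1, had ratios of 7.56 (6.52 to 8.74) and 8.12 (6.58 to 9.91). Atp2a2, the SERCA2 calcium pump of the ER, was 6.23-fold and 8.74-fold higher, and Slc7a1, a carrier of cationic amino acids, 6.16-fold and 6.59-fold. Scd2, a fatty acid desaturase of the ER membrane, was 6.52-fold and 7.05-fold higher, and Man2a2, a Golgi mannosidase, 5.61-fold and 7.53-fold. Also among the 15 were Erdr1 (7.30-fold and 6.71-fold), 4932438A13Rik (6.06 and 6.24), the membrane skeleton gene Sptbn1 (5.96 and 6.96) and the splicing-linked Arglu1 (5.83 and 5.61). A UMI of Slc16a1 was found in 59.9% of the high-mitochondrial barcodes against 33.3% of the deeper barcodes under 10% with TAK-981, and in 64.7% against 40.1% with vehicle.

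Solute carriers as a family, defined by symbol after values had been seen, had median log2 ratios of 1.39 with TAK-981 (69 measured, 50 at least 2-fold higher, none lower) and 1.18 with vehicle (36 measured, 22 higher, none lower). Of all genes 32.9 and 23.4% were at least 2-fold higher and only 3.69 and 5.53% at least 2-fold lower. Among the solute carriers the glutamine transporters Slc38a2 and Slc38a1 stood at 4.39-fold and 3.99-fold with TAK-981 and at 4.10-fold and 4.67-fold with vehicle. Carriers of the inner mitochondrial membrane, the Slc25 family, had 22 and 12 measured genes with medians of 0.33 and -0.51, both below the median of all genes, so that the first is negative when scaled to that median. At matched depth they were 0.53 and -0.17. Slc25a5, an ADP/ATP carrier, was at 0.399 and 0.426 of its level under 10%, and Slc25a3, the phosphate carrier, at 0.662 and 0.593. Genes named Tmem, coding for transmembrane proteins, had medians of 0.74 (96 genes) and 0.32 (55 genes), and at matched depth of 0.62 and 0.92, where the medians of all genes were both 0.50. Families with nuclear roles were above the median gene as well: zinc finger genes named Zfp had medians of 1.00 (111 genes) and 0.78 (39 genes), or 0.75 and 1.16 at matched depth, and serine- and arginine-rich splicing factors of 0.74 and 0.87 over 10 genes. All these families and the members named were chosen after values had been seen.

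**Figure D4:**
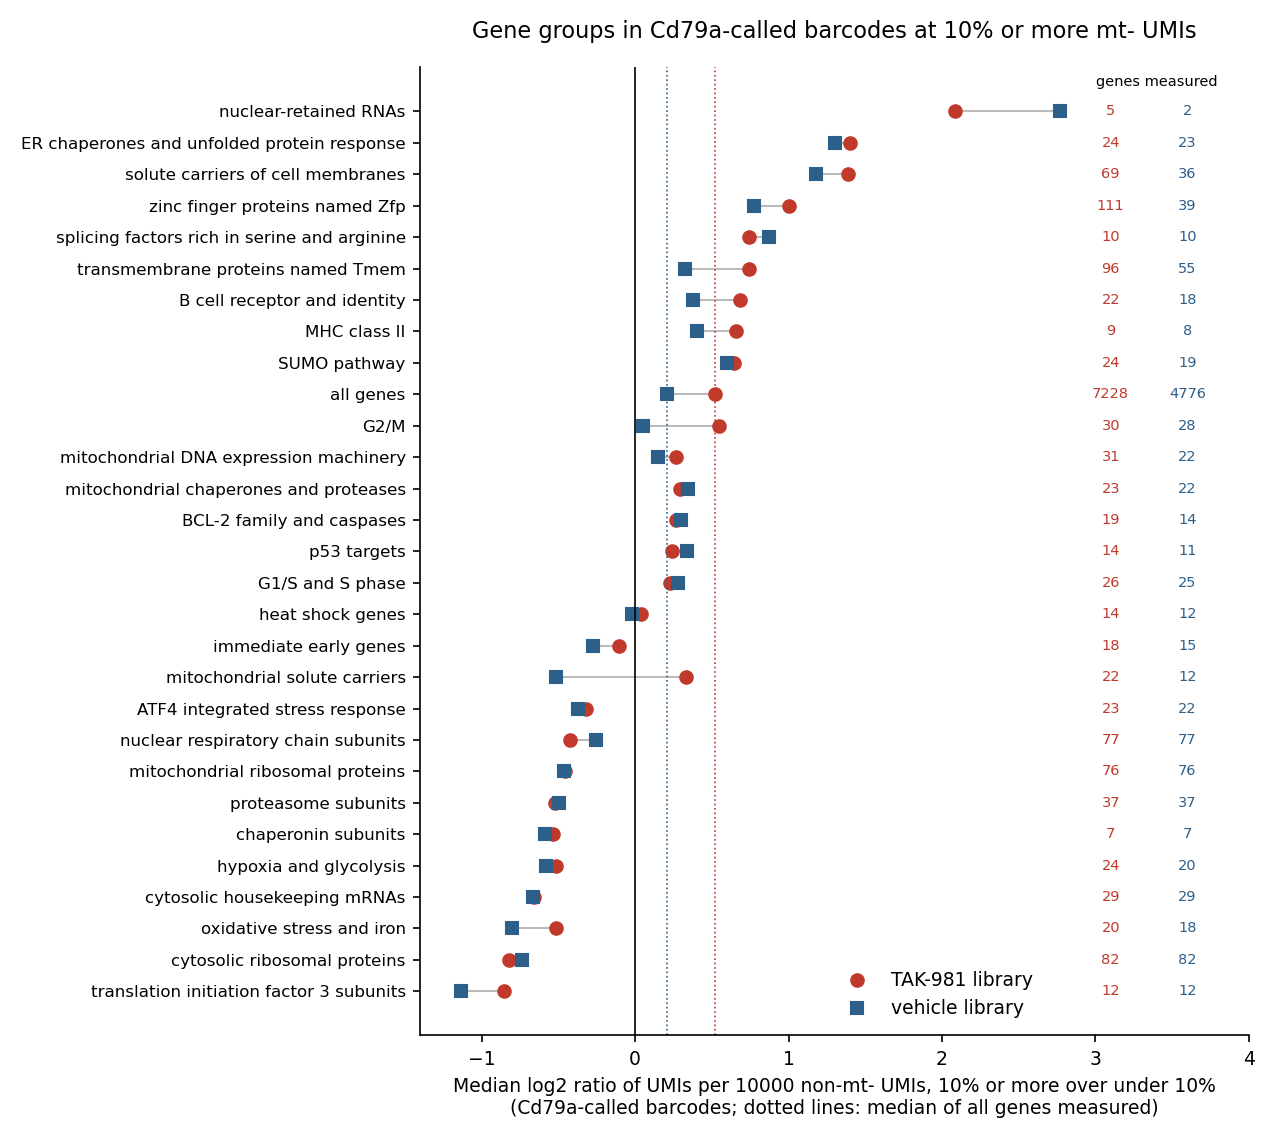
Median log2 ratio of high-mitochondrial over other Cd79a-called barcodes for each gene group (rows) in the TAK-981 library (red circles) and the vehicle library (blue squares). Dotted lines mark the median of all genes measured, 0.52 and 0.21, and the columns at the right give the number of genes measured. Nuclear-retained RNAs, ER chaperones (1.40 and 1.30) and solute carriers (1.39 and 1.18) lie to the right of both lines, and ribosomal proteins (-0.82 and -0.74) to the left of 0.

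Nuclear genes for mitochondrial proteins did not share the level of the mitochondrial transcripts. The nuclear subunits of the respiratory chain and ATP synthase had medians of -0.43 with TAK-981 and -0.26 with vehicle over 77 genes, none of them at least 2-fold higher and 4 at least 2-fold lower in each library. The 4 lower genes are 5.19% of the list, near the 3.69 and 5.53% of all genes. Of all genes 32.9 and 23.4% were at least 2-fold higher. The complex IV subunit Cox4i1 stood at 1.04 and 1.11, Cox8a at 0.756 and 0.842, and the ATP synthase subunit Atp5e at 0.413 and 0.469. Mitochondrial ribosomal proteins, which form the ribosome that translates the mitochondrial transcripts, had a median of -0.46 over 76 genes in both libraries. At matched depth these medians were -0.15 with TAK-981 and -0.16 with vehicle, with 22 and 25 genes above 0. The machinery for mitochondrial DNA expression had medians of 0.27 and 0.15, below those of all genes and below 0 with TAK-981 under the median-of-ratios scaling. Within it Tfam, which packages mitochondrial DNA, stood at 0.978 and 1.15, and Lrpprc, which stabilises mitochondrial messenger RNAs, at 2.80 and 2.64. Polg, the mitochondrial DNA polymerase, stood at 4.14 and 3.00. The mitochondrial ribosomal family, Atp5e, Tfam and Lrpprc were chosen after values had been seen. Mitochondrial chaperones and proteases had medians of 0.29 and 0.34, with Hspd1, mitochondrial HSP60, at 1.58 and 1.41 and its partner Hspe1 at 0.810 and 0.820. In the mitophagy list, 4 of 18 (22.2%) and 5 of 14 (35.7%) measured genes were at least 2-fold lower, against 3.69 and 5.53% of all genes. At least 2-fold higher were 1 and 0, against 32.9 and 23.4% of all genes. The medians of the list were -0.21 and -0.67, and with TAK-981 it was 0.03 at matched depth. Bnip3, a mitophagy receptor induced by hypoxia, was the lowest gene of all by the smaller ratio, with 28 UMIs (0.257 against 1.54 per 10000, 6.00-fold lower, 4.15 to 9.04) and 13 UMIs (0.270 against 1.16, 4.31-fold lower, 2.52 to 8.10).

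The lists of p53 targets, immediate early, heat shock, ATF4 and BCL-2 family genes, unlike the ER list, had medians below that of all genes (0.52) with TAK-981, and with vehicle the p53 targets (0.34) and the BCL-2 family (0.30) lay above it (0.21). Of 14 measured p53 targets none was at least 2-fold higher or lower with TAK-981, against a background of 32.9% higher, and 1 of 11 was higher with vehicle, against 23.4%. Immediate early genes had medians of -0.10 and -0.28, with none of 18 and 15 at least 2-fold higher and 4 lower in each. The lower genes are 22.2 and 26.7%, against 3.69 and 5.53% of all genes. Of all genes 32.9 and 23.4% were at least 2-fold higher. Fos, a subunit of the AP-1 factor, was 4.13-fold lower with TAK-981 from 17 UMIs and 2.93-fold lower with vehicle from 25 UMIs, and Egr1 was 3.05-fold and 3.09-fold lower. Heat shock genes lay at 0.04 and -0.02 and ATF4 targets at -0.32 and -0.37. In the BCL-2 family, 5 of 19 and 6 of 14 were at least 2-fold higher, against backgrounds of 32.9 and 23.4%. Both sides of the family were among them, the death-blocking Mcl1 (2.25 and 2.38) and Bcl2l1 (2.07 and 2.09) and the death-promoting Bcl2l11 (2.21 and 2.54). The death effector Bax stood at 0.751 and 0.814. Mcl1 was picked out after its value had been seen.

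The glycolysis and redox lists had medians below that of all genes. The hypoxia and glycolysis list had medians of -0.51 and -0.58. In it 9 of 24 (37.5%) and 7 of 20 (35%) were at least 2-fold lower, against 3.69 and 5.53% of all genes. On the other side 4 (16.7%) and 1 (5%) were at least 2-fold higher, against 32.9 and 23.4%. The most abundant member of the list, Ldha, lactate dehydrogenase, stood at 0.636 and 0.625. Aldoa, the glycolytic aldolase, stood at 0.388 and 0.415, while Gapdh was at 0.816 and 0.853. The oxidative stress and iron list had medians of -0.51 and -0.80. Fth1, the heavy chain of the iron store ferritin, stood at 0.408 and 0.459, and Prdx1, a peroxide-removing enzyme, at 0.472 and 0.479. Sod1, the cytosolic superoxide dismutase, stood on the other side at 2.77 and 3.24, and was picked out after its value had been seen. The remaining genes of the 15 lowest had few UMIs: Hist3h2ba had 13 and 2, Pgk1-rs7 14 and 4, Gng3 9 and 4, Gng10 8 and 5, Pdlim2 17 and 6, Aaed1 16 and 8, Gyg 20 and 11, and Gm5786 65 and 35 in the high-mitochondrial barcodes. Pgk1-rs7 and Gm5786 are close copies of other genes, so their counts are uncertain.

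The list of genes that mark B cells had medians above those of all genes. Its shares of genes at least 2-fold higher were not far above the shares of all genes. The B cell receptor and identity list had medians of 0.69 and 0.38, with 9 of 22 (40.9%) and 6 of 18 (33.3%) at least 2-fold higher, against 32.9 and 23.4% of all genes, and none lower. Igkc, the kappa light chain constant region, stood at 8.22 against 2.73 UMIs per 10000 with TAK-981 and at 5.50 against 1.99 with vehicle, ratios of 3.01 and 2.76. Jchain, which links immunoglobulin units, had ratios of 1.40 and 1.19, and Mzb1, an ER protein of antibody-making cells, 1.07 and 1.02. Cd79a itself was at 1.63 and 1.38, but it also made the call, in barcodes of lower depth than those under 10%. With TAK-981 the 7 B cell markers, Cd79a among them, stood at 26.8 UMIs per 10000 in Cd79a-called and 11.1 in uncalled high-mitochondrial barcodes. Under 10% they stood at 15.3 and 5.97. The part of the call in the other ratios of the list was not tested. MHC class II genes, which present peptides to helper T cells, had medians of 0.65 and 0.41, with H2-Ab1 at 2.07 and 1.60 and the invariant chain Cd74 at 1.10 and 0.886. MHC class I and peptide supply genes had medians of 0.58 and 0.18. The SUMO pathway, the target of TAK-981, had medians of 0.64 and 0.60 and held genes on both sides. The vehicle median was -0.16 over genes with at least 30 expected UMIs and -0.46 at a threshold of 15%. The vehicle median of all genes was then -0.14 and -0.40, so the list moved with it. Sumo2, a SUMO protein, was lower at 0.602 and 0.637, while Ranbp2, a large SUMO ligase of the nuclear pore, was at 5.01 and 5.45.

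Cell cycle genes also lay on both sides. The G2/M list had medians of 0.55 with TAK-981 and 0.05 with vehicle, with 10 of 30 (33.3%) and 8 of 28 (28.6%) at least 2-fold higher, near the 32.9 and 23.4% of all genes. Mki67, the Ki-67 protein of dividing cells, stood at 9.82 against 2.80 UMIs per 10000 with TAK-981 and at 8.05 against 2.21 with vehicle, ratios of 3.51 and 3.64, and Top2a, the topoisomerase of mitotic chromosomes, at 2.94 and 2.92. Hmgb2, a small chromatin protein, stood at 0.983 and 0.966 and Cks2, a small subunit bound to cyclin-dependent kinases, at 0.956 and 1.10. The G1/S list had medians of 0.23 and 0.28, the first of them -0.30 under the median-of-ratios scaling, with 5 of 26 and 1 of 25 at least 2-fold higher and 1 lower in each. The higher genes are 19.2 and 4%, against 32.9 and 23.4% of all genes. The lower are 3.85 and 4%, near the 3.69 and 5.53% of all genes. Of the type I interferon list 24 genes were measured with TAK-981, 5 at least 2-fold higher and 4 lower, at a median of 0.35. These are 20.8% higher and 16.7% lower, against 32.9 and 3.69% of all genes. The median was -0.17 under the median-of-ratios scaling and -0.88 over barcodes of all lineages. With vehicle 5 were measured at a median of 0.17, which was -0.16 with the total of all UMIs and -0.035 under the median-of-ratios scaling. Of the interferon-induced GTPases 7 were measured with TAK-981, none at least 2-fold higher and 3 lower (42.9%), against 32.9% higher and 3.69% lower of all genes.

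Ratios were ordered by transcript length, which was examined after the values had been seen. Lengths were the median of a gene's protein-coding transcripts in GENCODE vM21, matched by gene identifier for 98.1 and 98.4% of measured genes. Being medians, they can be shorter than a gene's longest transcript, which would put such a gene in a shorter class. With TAK-981 the median log2 ratio was -0.11 for genes under 1000 bases, 0.12 at 1000 to 2000, 0.65 at 2000 to 3000, 1.11 at 3000 to 5000 and 1.55 at 5000 or more. With vehicle the same classes had -0.23, -0.04, 0.47, 0.95 and 1.55. At least 2-fold higher were 15.8 and 9.50% of the shortest class and 80.4 and 74.7% of the longest. Across genes, Spearman's rho between length and ratio was 0.51 and 0.49, as a description over genes that are not independent. Mki67 has a length of 5318 bases and Ranbp2 of 9608, against 692 for Cks2. Levels were not matched between length classes, and the part of length in any ratio was not tested.

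The order of the length classes held when the barcodes under 10% were limited to those with non-mitochondrial UMIs between the 10th and 90th percentile of the high-mitochondrial group, 244 with TAK-981 and 252 with vehicle. The medians then ran from 0.08 to 0.95 with TAK-981 and from -0.04 to 1.36 with vehicle. The lists were set against genes of the same length class only in the comparison with all barcodes under 10%, without depth matching. There they took different places. The G2/M list lay at 0.00 and -0.05 and the SUMO pathway at -0.01 and 0.05, level with genes of like length. ER chaperones stayed 0.80 and 0.70 above their class (18 of 24 and 17 of 23 genes above) and solute carriers 0.91 and 0.93 above (63 of 69 and 30 of 36). Cytosolic ribosomal proteins stayed 0.77 and 0.58 log2 units below, with 2 and 8 of 81 genes above their class. The nuclear-retained RNAs have no protein-coding length and were left out.

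**Figure D5:**
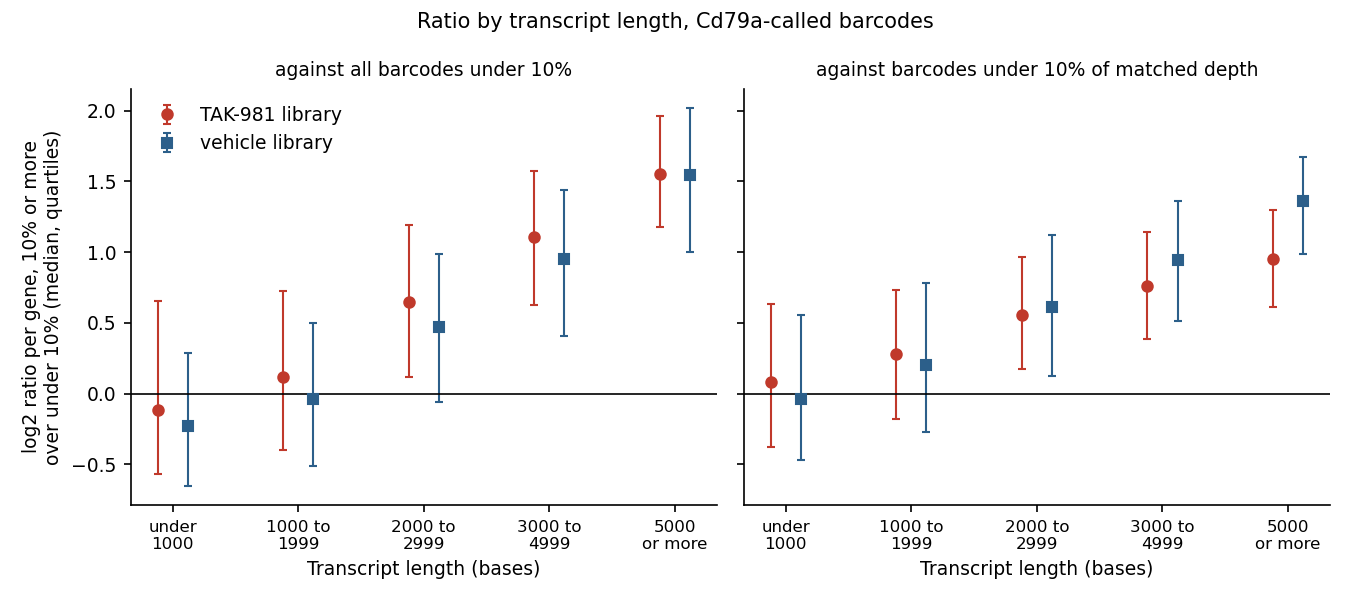
Log2 ratio of high-mitochondrial over other Cd79a-called barcodes (vertical) by transcript length class (horizontal, bases), against all barcodes under 10% (left) and against those of matched depth (right). Points are medians over genes and bars the quartiles, for the TAK-981 library (red circles) and the vehicle library (blue squares). Medians go from -0.11 and -0.23 in the shortest class to 1.55 in both libraries in the longest, and from 0.08 and -0.04 to 0.95 and 1.36 at matched depth.

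The treated and vehicle libraries were last compared within the high-mitochondrial Cd79a-called barcodes, 197 against 68. Of 6587 genes measured, 129 were at least 2-fold higher with TAK-981 (1.96%) and 39 at least 2-fold lower (0.592%), and the median gene lay at a log2 ratio of 0.02. Under 10%, with far more UMIs, 23 of the same 6587 genes were higher (0.349%) and 1 lower, and over all 11148 genes measured there 196 were higher (1.76%) and 47 lower (0.422%). Most interferon genes had too few UMIs here: 15 of 55 genes of the type I interferon list were measured, and a gene could pass the filter through its TAK-981 counts alone, so the counts that follow only describe. Their median was 0.77, with 6 at least 2-fold higher and 13 above a ratio of 1. The same 15 genes under 10% had a median of 1.16, with 10 at least 2-fold higher. The difference between these medians was not tested.

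Of the 10 genes highest with TAK-981, 5 belong to the interferon response or to PML bodies. Irf9, the DNA-binding part of the factor that carries type I interferon signals, had 74 UMIs with TAK-981 and 5 with vehicle (6.54-fold, 2.68 to 20.7). Irf1, another interferon regulatory factor, had 122 and 14 (3.85-fold, 2.21 to 7.25), and the guanylate-binding protein Gbp4 45 and 4 (4.97-fold, 1.81 to 19.0). Pml, the organiser of PML nuclear bodies, had 33 and 3 (4.86-fold, 1.53 to 24.8), and its partner Sp100 78 and 9 (3.83-fold, 1.92 to 8.69). Usp18, which removes ISG15 and restrains the receptor, had 32 and 1 (14.1-fold, 2.36 to 576), and was kept out of the 10 by its lone vehicle UMI. The others of the 10 highest, each from 3 or 4 vehicle UMIs, were Tstd2 (5.30-fold, 1.68 to 26.9), Ift88 (4.57-fold, 1.42 to 23.3), Ano10 (4.42-fold, 1.37 to 22.6) and, both at 3.54-fold (1.25 to 13.8), Rhobtb2 and Faap24. Under 10% Tstd2 stood at 1.04, Ano10 at 1.02, Faap24 at 1.05, Ift88 at 1.18 and Rhobtb2 at 1.54, while Irf9 stood at 3.47, Pml at 2.46, Gbp4 at 2.39, Sp100 at 2.24 and Irf1 at 1.92.

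On the lower side Fos had 17 UMIs with TAK-981 and 25 with vehicle, 3.33-fold lower per 10000 UMIs. Ppp1r15a, the GADD34 protein that restores translation after stress, had 19 and 23, 2.74-fold lower. Zkscan8, Ccdc88c, Zfp296, Stk24, Tanc2, Tarsl2, Fam173b and Haus5 were between 2.40-fold and 2.97-fold lower, from 16 to 24 UMIs with TAK-981. In the better counted barcodes under 10% their ratios lay between 0.776 (Haus5) and 1.11 (Zfp296 and Tanc2), with Zkscan8 at 1.06 and Fam173b at 1.09, and Ppp1r15a stood at 0.751 and Fos at 0.424. ER chaperones had a median log2 ratio of 0.45 between the libraries at 10% or more, with 22 of 24 above a ratio of 1, and of 0.28 under 10%. Ribosomal proteins lay at -0.08 and -0.02, against -0.82 and -0.74 between high-mitochondrial and other barcodes.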

How the data were processed

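Raw UMI counts for each gene in each barcode were deposited by the authors as sparse matrices of integers, per the file headers. Cell Ranger 2.1.1 and Seurat 2 are named in the submitters' processing notes, with no role given. Genome build, annotation and strand setting: not given in the sources used here. Coordinates were left out, and no deposited cell annotation was used. The lowest totals of 4670 and 5965 UMIs show that barcodes had been selected before deposit. Computation used Python 3.11.15, pandas 2.3.3, numpy 2.4.6, matplotlib 3.10.9 and scipy 1.17.1. The 67 rows repeating a symbol were summed into the first. Mitochondrial UMIs were left out of totals for ratios. Ratios carry exact conditional binomial 95% intervals and shares carry Clopper-Pearson ones. Where no barcode had a UMI, the limit came from a floor of 3 counts. UMIs are taken as independent, so intervals are too narrow where barcodes differ. The ratio script was tested on simulated data. The members and lists were chosen with earlier results of these data known. Named were the 15 highest and 15 lowest genes by the smaller log2 ratio of both libraries (at least 2-fold in both, filter passed in both, no barcode over 50% of the UMIs), the 10 highest and lowest between libraries, all mt- genes, Malat1, Neat1, the lineage genes and the 2 to 4 members of each list with the most UMIs. Genes outside this rule were named after their values were seen. A few genes that the rule names are not reported here. Alternatives changed thresholds, totals, scaling, filters and barcodes, including 4 groups added after seeing the data.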

Additional observations from a re-analysis of the deposited data

Results flagged for a closer look

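Outside the high-mitochondrial barcodes and those compared with them, 8 TAK-981 and 6 vehicle barcodes had fewer than 200 detected genes, and these drew attention because they hold a signal that no comparison above uses. In them Gm42418, the gene model related to 18S ribosomal RNA, made up 96.4% of all UMIs with TAK-981 and 98.4% with vehicle. They had 101 to 145 genes with TAK-981 and 72 to 138 with vehicle. Their mitochondrial shares were low, from 0 to 3.73% and from 0.108 to 1.28%, so no barcode of either library with under 200 genes had a share of 10% or more. Single high-mitochondrial barcodes reached Gm42418 shares of 63.8 and 64.4% of non-mitochondrial UMIs.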

How the results depend on the processing

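No paired analysis was possible because each arm has 1 library, and no replicate could be left out. The share of high-mitochondrial barcodes was 30.7% (TAK-981) and 13.9% (vehicle) at a threshold of 5%, 7.37 and 1.28% at 15%, and 3.27 and 0.272% at 20%. With at least 5965 UMIs it was 8.65% with TAK-981, and with at least 8000 UMIs 2.79 and 2.13%, both minimums chosen after seeing the data. The Cd79a-called share was 73.1 and 72.6% from 1 UMI, 22.6% in both from 5 UMIs, 11.4 and 11.3% after thinning, and 47.2 and 39.4% at a threshold of 15%. Genes at least 2-fold higher numbered 1165 with TAK-981 and 457 in both libraries under median-of-ratios scaling, 1206, 86 (vehicle) and 64 (both) at a threshold of 15%, and 936, 224 and 182 with 30 expected UMIs. They numbered 1839 with vehicle and 1590 in both over all barcodes, and 1719 and 1503 at 1.5-fold. Genes at least 2-fold lower numbered 503 (TAK-981), 445 (vehicle) and 243 (both) with the total of all UMIs, 1072, 461 and 371 under median of ratios, 126, 151 and 50 at matched depth, and 828, 780 and 498 at 1.5-fold. They were 435 with TAK-981 over all barcodes and 154 with vehicle at 30 expected UMIs. Between libraries, 55 genes were higher and 11 lower at 15%, 16 and 1 with 30 expected UMIs, and 69 lower with at least 5965 UMIs. The respiratory chain median was -0.62 and -0.43 with the total of all UMIs, -0.95 and -0.46 under median of ratios, and -0.48 and -0.44 at 15%. With TAK-981 it was -0.56 over all barcodes and -0.27 at matched depth. Ribosomal proteins lay at -1.02 and -0.91 with the total of all UMIs and at -1.34 and -0.94 under median of ratios, which put housekeeping genes at -1.18 with TAK-981. The complex IV share was 38 and 38.9% at 15% and 38.3 and 37.2% in Cd79a-called barcodes.

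Median-of-ratios scaling takes the same amount off every gene (0.52 with TAK-981, 0.21 with vehicle), so by construction all list medians between 0 and that amount turn negative. This held for 11 values, among them mitochondrial DNA expression (-0.25), G1/S (-0.30) and interferon (-0.17) genes with TAK-981 and interferon genes with vehicle (-0.035), and it says nothing of these lists in particular. With the total of all UMIs 4 list medians changed sign, including interferon genes with vehicle (-0.16). With 30 expected UMIs 7 did, at a threshold of 15% 4, at matched depth 3 and over all barcodes 2. The median of all genes moved as well. With TAK-981 and vehicle it was 0.20 and -0.14 with 30 expected UMIs, and 0.25 and -0.40 at 15%. At 15% with vehicle, from 13 barcodes, Hist3h2ba was at 0.041 and Gng10 at 0.20, the values that the floor of 3 counts gives. Hist3h2ba had 2 UMIs in all 68 barcodes and none in these 13, so its value is an upper limit. Gng10 rests on at most 3 UMIs there, so neither value shows a change of direction. ER chaperone medians stayed between 0.88 and 1.53 with TAK-981 and between 0.79 and 1.38 with vehicle under every alternative run, and the interferon median between libraries between 0.61 and 1.15. No value could be had for the latter at 15%.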
